A study of Mus musculus with 6 samples.

Results

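The NKR-P1 receptors and their Clr ligands are lectin-like surface proteins encoded side by side in the natural killer gene complex on mouse chromosome 6. Their genes were taken from the deposited count table by symbol: 5 receptor genes (Klrb1, Klrb1a, Klrb1b, Klrb1c and Klrb1f) and 3 ligand genes (Clec2d, Clec2i and Clec2g), 8 of 55487 genes in all. RNA sequencing had been performed on live CD3ε+CD45+ lymphocytes sorted from the small-intestinal epithelium of wild-type C57BL/6J mice. One group was B220-negative (labelled T cells) and the other B220-positive (labelled X cells), with 3 libraries each. Both groups were wild type, neither is labelled as treated, and the labels used here give no age. Whether replicate libraries derive from different animals is not stated, so the tests weigh differences against library-to-library spread that may be technical.

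NKR-P1 receptors are type II transmembrane proteins of natural killer cells and of some T cells, and unlike most lectin-like killer receptors they bind other lectin-like proteins, the Clr family, in place of MHC class I. NKR-P1A, NKR-P1C and NKR-P1F (Klrb1a, Klrb1c and Klrb1f) are grouped as stimulatory receptors, and NKR-P1B and NKR-P1G (Klrb1b and Klrb1) as inhibitory ones. The best known pairs are NKR-P1B with Clr-b, the product of Clec2d that most blood-derived cells carry, and NKR-P1F with Clr-g, the product of Clec2i. In the gut, Clr-f (Clec2h) is a product of epithelial cells and a ligand of NKR-P1G. NK1.1, the antigen that marks natural killer cells in C57BL/6 mice, is NKR-P1C.

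Of the 5 receptor genes, 3 were called higher in B220+ cells: Klrb1 (2.99-fold), Klrb1b (2.36-fold) and Klrb1c (2.14-fold). The receptor gene with the largest difference, Klrb1a (3.87-fold), was higher in every B220+ library but did not pass the test, and Klrb1f lay the other way and did not pass either. None of the 3 ligand genes was called. A gene was called where the Benjamini-Hochberg adjusted p of edgeR's quasi-likelihood test, over all 14722 genes tested, was under 0.05. Over all tested genes, 5.58% were called higher and 5.56% lower (11.1% in either direction), and the median log2 fold change was −0.0074. The 5 receptor genes had a median of 1.24 and the 2 tested ligand genes one of 0.057. DESeq2 also called 3 receptor genes higher and 0 lower, with Klrb1a in place of Klrb1b, where it called 6.12% of all genes higher and 5.84% lower. Without robust estimation, in which all genes share 1 prior for the spread, edgeR called the same 3 as DESeq2, against 5.70% of genes higher and 5.39% lower. With the replicate number as a block, Klrb1, Klrb1b and Klrb1c were called higher and Klrb1f lower, against 8.85% and 8.60% of all genes (17.5% together). With no filter on low counts the same 4 calls were made, against 4.19% of 26276 genes higher and 4.23% lower (8.41% together). Each library pools many cells, so more cells with a receptor and more receptor RNA per cell cannot be told apart.

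The upstream sequences of 4 receptor genes are shown first because they include the most alike pair among the 8 genes and the receptor that lay the other way. They are the 200 bases before the RefSeq start (GRCm38.p6), 5′ to 3′ on the gene's strand. Capitals mark matches, on either strand, to the RUNX letters TGTGGT, the T-box letters AGGTGT, the GATA letters AGATAA, the ETS letters AGGAAG, the ROR letters AGGTCA, the AP-1 letters TGANTCA or the TATA letters TATAAA. The windows are chr6:128622935-128623134 for Klrb1a, chr6:128788642-128788841 for Klrb1c, chr6:128723098-128723297 for Klrb1 (all minus strand) and chr6:129045701-129045900 for Klrb1f (plus strand).
Klrb1a: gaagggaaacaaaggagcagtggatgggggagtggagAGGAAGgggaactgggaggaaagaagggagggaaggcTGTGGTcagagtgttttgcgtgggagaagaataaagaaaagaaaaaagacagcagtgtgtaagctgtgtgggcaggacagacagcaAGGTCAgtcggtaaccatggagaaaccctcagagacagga
Klrb1c: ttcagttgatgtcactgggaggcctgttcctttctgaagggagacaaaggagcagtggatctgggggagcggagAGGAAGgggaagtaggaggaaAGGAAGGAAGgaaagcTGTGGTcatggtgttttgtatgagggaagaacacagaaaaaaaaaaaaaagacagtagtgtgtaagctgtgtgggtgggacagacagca
Klrb1: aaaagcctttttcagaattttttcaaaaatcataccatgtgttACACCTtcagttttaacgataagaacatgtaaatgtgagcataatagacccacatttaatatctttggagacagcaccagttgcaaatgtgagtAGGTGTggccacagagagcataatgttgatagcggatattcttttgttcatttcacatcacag
Klrb1f: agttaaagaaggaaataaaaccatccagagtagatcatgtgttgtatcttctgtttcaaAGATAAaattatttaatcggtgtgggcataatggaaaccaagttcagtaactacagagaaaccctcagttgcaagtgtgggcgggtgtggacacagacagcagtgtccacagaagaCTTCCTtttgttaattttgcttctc

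The Klrb1a and Klrb1c windows could be aligned over 160 bases, of which 140 (87.5%) were identical. The other 27 pairs among the 8 genes had 59.4% to 79.0% identity over the bases aligned (global alignment with free end gaps). Both of these windows held the RUNX letters, which 11.3% of 27025 RefSeq promoters of that length hold, and the ETS letters, which 24.5% hold. The Klrb1a window also held the ROR letters (11.2%). In Klrb1c the ETS letters occurred 3 times, and the last 2 of these overlap. The Klrb1 window held neither and had the T-box letters in 2 places (9.43% of promoters hold them), and the Klrb1f window had the GATA letters (7.98%) and the ETS letters once each. A match says only that these letters occur there. The Klrb1a and Klrb1c windows lie inside the deposited gene models, between exons, because those models start farther upstream than the RefSeq start.

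Among the receptors grouped as stimulatory, Klrb1a (ENSMUSG00000030361, mm10 chromosome 6, 128609227 to 128623533, minus strand) had the highest mean level per exonic length of the receptor genes in both groups. In B220− replicate 1, however, Klrb1f was slightly above it (4.87 against 4.80 CPM per kb of exon). Its level, in CPM (read counts relative to the library's total after TMM scaling), was 7.65, 29.0 and 17.9 in B220− replicates 1, 2 and 3 and 61.0, 76.5 and 72.65 in B220+ replicates 1, 2 and 3. The groups did not overlap, but the B220− libraries spread 3.79-fold from lowest to highest and the B220+ libraries 1.25-fold. The log2 fold change was 1.95 (SE 0.50, 95% interval before adjustment 0.59 to 3.32), with an edgeR adjusted p of 0.103. The same difference was called by DESeq2 (adjusted p = 0.00320), by edgeR without robust estimation (0.00420), without B220− replicate 1 (0.0154) and without B220− replicate 2 (0.0440). It was not called in the other 4 fits that left out 1 library, up to an edgeR adjusted p of 0.266. Nor was it called with the replicate block (0.136) or with no filter on low counts (0.165).

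Klrb1c (ENSMUSG00000030325, chromosome 6, 128778485 to 128789215, minus strand), which encodes NK1.1, stood at 8.73, 11.9 and 10.5 CPM in B220− and at 21.5, 23.4 and 21.6 CPM in B220+ replicates 1 to 3. Every B220+ library was above every B220− library, with a coefficient of variation of 15.3% in B220− and 4.89% in B220+ cells. Its log2 rise of 1.10, with an SE of 0.13, had an edgeR adjusted p of 1.64e-04, and it was called in all 6 fits that left out 1 library, with an adjusted p of at most 0.00262.

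Klrb1f (ENSMUSG00000030154, chromosome 6, 129045901 to 129057464, plus strand) was the receptor gene with the opposite sign. It stood at 9.86, 4.99 and 7.78 CPM in B220− and at 4.92, 3.45 and 6.44 CPM in B220+ replicates 1 to 3, and the groups overlapped. The log2 fold change was −0.65 (SE 0.29), with an edgeR adjusted p of 0.220. With the replicate number as a block it was called lower (adjusted p = 0.0299), as it was with no filter on low counts (0.0230) and without B220− replicate 2 (0.0375). In the other 5 fits without 1 library it was not called.

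Within libraries, where scaling cancels, Klrb1f was set against the other receptor genes as a description, since it was picked for its opposite sign. The log2 ratio of Klrb1f to Klrb1a in CPM was −1.13 ± 1.46 in B220− and −3.87 ± 0.53 in B220+ cells (mean ± SD, n = 3 per group). The mean ratios to Klrb1, Klrb1b and Klrb1c differed by −2.24, −1.97 and −1.71 (B220+ minus B220−, log2).

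Of the receptors grouped as inhibitory, Klrb1 (ENSMUSG00000079299, chromosome 6, 128705836 to 128723059, minus strand), which encodes NKR-P1G, was at 5.98, 12.9 and 9.70 CPM in B220− and at 27.5, 30.04 and 27.6 CPM in B220+ replicates 1 to 3. The highest B220− library was below the lowest B220+ library, and B220− replicate 1 was the lowest of the 6. Its log2 rise of 1.58, with an SE of 0.24, passed the test at an edgeR adjusted p of 0.00542. The call held in all 6 fits without 1 library, with an adjusted p of at most 0.0394.

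Klrb1b (ENSMUSG00000079298, chromosome 6, 128813706 to 128826331, minus strand), which encodes the receptor for Clr-b, was the least abundant of the receptor genes. It had 13, 20 and 6 counts in B220− and 23, 68 and 30 in B220+ replicates 1 to 3, or 0.700, 1.13 and 0.524 against 1.95, 1.71 and 2.12 CPM. The groups did not overlap. The log2 fold change of 1.24 (SE 0.37) was called at an edgeR adjusted p of 0.0477, but it was not called by DESeq2 (0.0800), without robust estimation (0.0518) or in 5 of the 6 fits without 1 library, up to 0.146 without B220− replicate 3.

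**Figure D1:**
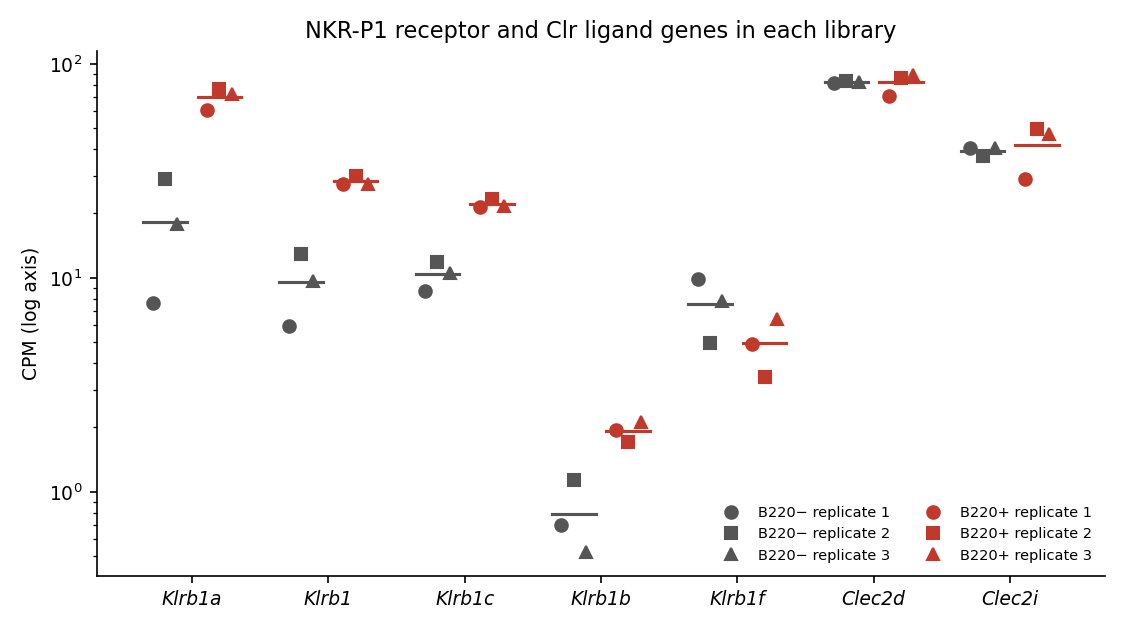
CPM (log axis) of the 7 tested receptor and ligand genes in each library, grey for B220− and red for B220+, with the symbol shape giving the replicate number and lines the group means. The groups are apart for Klrb1a, Klrb1, Klrb1c and Klrb1b and overlap for Klrb1f, Clec2d and Clec2i.

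In 4 of the 5 receptor genes the groups did not overlap, all higher in B220+ cells, where 14.1% of all tested genes lay apart in that direction (28.1% in either and 13.9% lower). The B220− libraries kept an order in several of them. Replicate 1 was the lowest and replicate 2 the highest for Klrb1a, Klrb1 and Klrb1c, and replicate 1 was the highest and replicate 2 the lowest for Klrb1f. The coefficient of variation in B220− cells was 58.7% for Klrb1a and 36.4% for Klrb1, above 99.8% and 98.7% of the 9381 tested genes with a mean of at least 10 CPM, whose median was 6.96%. In B220+ cells it was 11.5% and 5.10%, against a median of 6.53%.

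Of the ligand genes, Clec2d (ENSMUSG00000030157, chromosome 6, 129180615 to 129186534, plus strand), which encodes Clr-b, was at 81.0, 82.8 and 82.0 CPM in B220− and at 71.2, 86.1 and 89.1 CPM in B220+ replicates 1 to 3. The B220− values lay inside the B220+ range. The log2 fold change was 0.0065 (edgeR adjusted p = 0.977), with a 95% interval of −0.18 to 0.19. Its coefficient of variation was 1.08% in B220− and 11.7% in B220+ cells, above 1.99% and 84.5% of the genes compared.

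Clec2i (ENSMUSG00000030365, chromosome 6, 128887588 to 128898167, plus strand), which encodes Clr-g, was at 40.5, 37.2 and 40.3 CPM in B220− and at 28.9, 49.5 and 47.2 CPM in B220+ replicates 1 to 3. B220+ replicate 1 was below and the other 2 B220+ libraries were above every B220− library. The log2 fold change was 0.11, with a 95% interval of −0.36 to 0.58 and an edgeR adjusted p of 0.825. Without B220+ replicate 1 it was 0.30 (adjusted p = 0.0562). Its coefficient of variation of 26.9% in B220+ cells was above that of 98.8% of the genes compared, against 4.72% in B220− cells (above 29.1%). The opposite-strand gene BC035044 overlaps Clec2i and had 8.94% as many counts, and since the strand setting of the counting is not given, reads of both may be mixed.

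Clec2g (ENSMUSG00000000248, chromosome 6, 128934381 to 128984707, plus strand), the osteoclast inhibitory lectin-related gene Ocilrp1, had 1 count in B220− replicate 2 and 0 in the other 5 libraries, and was not tested. A count of 0 allows up to 3 counts, which is 0.0755 to 0.262 CPM depending on the library and covers counting error only. Both groups were within that limit, so no fold is given.

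Compared per exonic length (CPM per kb of exon), the order of the genes differed between the groups. In B220− cells Clec2d was at 67.5 ± 0.73, Clec2i at 12.6 ± 0.60, Klrb1a at 11.4 ± 6.70, Klrb1 at 6.79 ± 2.47, Klrb1f at 3.72 ± 1.21, Klrb1c at 3.50 ± 0.54 and Klrb1b at 0.353 ± 0.14 CPM per kb (mean ± SD, n = 3). From Clec2i down to Klrb1c, each gene overlapped its neighbour in that order. In B220+ cells Clec2d was at 67.7 ± 7.93, Klrb1a at 43.9 ± 5.06, Klrb1 at 20.2 ± 1.03, Clec2i at 13.5 ± 3.62, Klrb1c at 7.48 ± 0.37, Klrb1f at 2.44 ± 0.74 and Klrb1b at 0.866 ± 0.092 CPM per kb. There no gene overlapped its neighbour. Over all 6 libraries Clec2d was above 95.0% of tested genes per length, Klrb1a above 85.8% and Klrb1b above 10.5%.

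Summed over the 5 genes, the receptor level was 17.2, 34.4 and 25.8 CPM per kb in B220− and 68.4, 79.7 and 76.6 in B220+ replicates 1 to 3. The summed ligand level was 80.2 ± 0.38 and 81.2 ± 11.5 CPM per kb (n = 3 each). Receptor over ligand level thus lay between 0.215 and 0.429 in B220− and between 0.864 and 1.01 in B220+ libraries. These sums cross the receptor and ligand pairs named above and leave out Clec2h, so the ratio does not describe matched pairs. Klrb1 took a like share of the receptor sum in both groups, 24.8% to 26.8% in the B220− and 25.65% to 28.6% in the B220+ libraries. Klrb1f took 7.16% to 28.3% of it in the B220− libraries and 2.14% to 4.15% in the B220+ libraries, and Klrb1a took 27.9% to 52.9% and 55.9% to 60.2%.

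**Figure D2:**
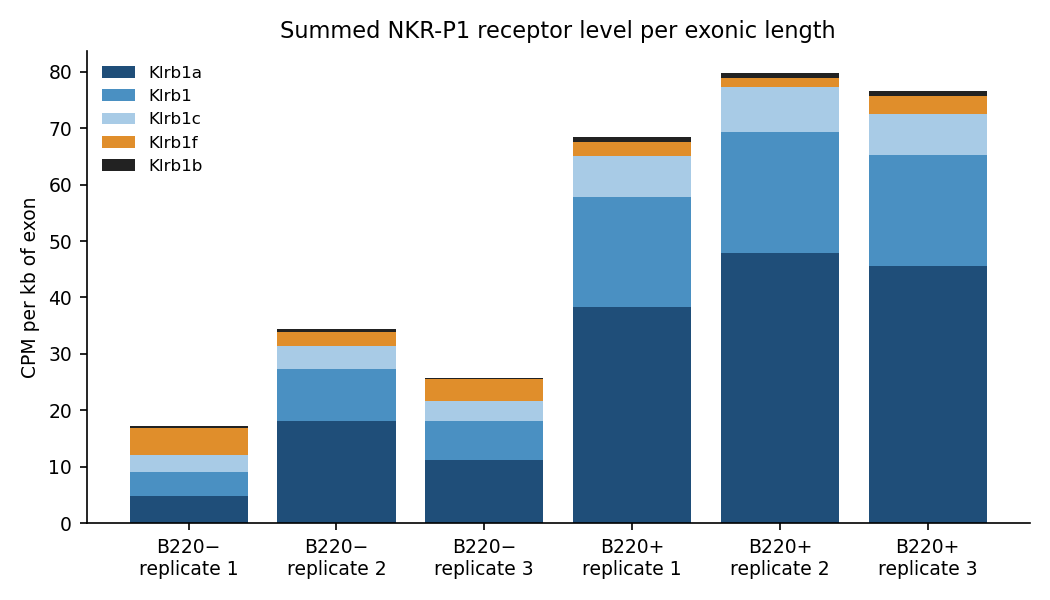
Stacked bars of the 5 receptor genes in each library, in CPM per kb of exon. The bars reach 17.2 to 34.4 in the B220− libraries and 68.4 to 79.7 in the B220+ libraries, and the Klrb1f part is largest in B220− replicate 1.

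The 8 genes span 577.3 kb, from the start of Klrb1a to the end of Clec2d, and this interval holds 35 gene models, of which 12 were tested and 3 called, the same 3 receptor genes. Klrb1a, Klrb1, Klrb1c and Klrb1b lie on the minus strand in that order, and Klrb1f lies farther along on the plus strand, among the Clec2 genes. The other tested genes of the interval were not called: Clec2h had a log2 fold change of −0.00088, Gm5884 of 0.058, Gm44066 of −0.45, BC035044 of 0.67 and BC064078 of 0.048. Cd69, an early activation and tissue residence marker just beyond Clec2d, fell from 501 ± 28.0 to 363 ± 40.2 CPM (edgeR adjusted p = 0.00325).

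**Figure D3:**
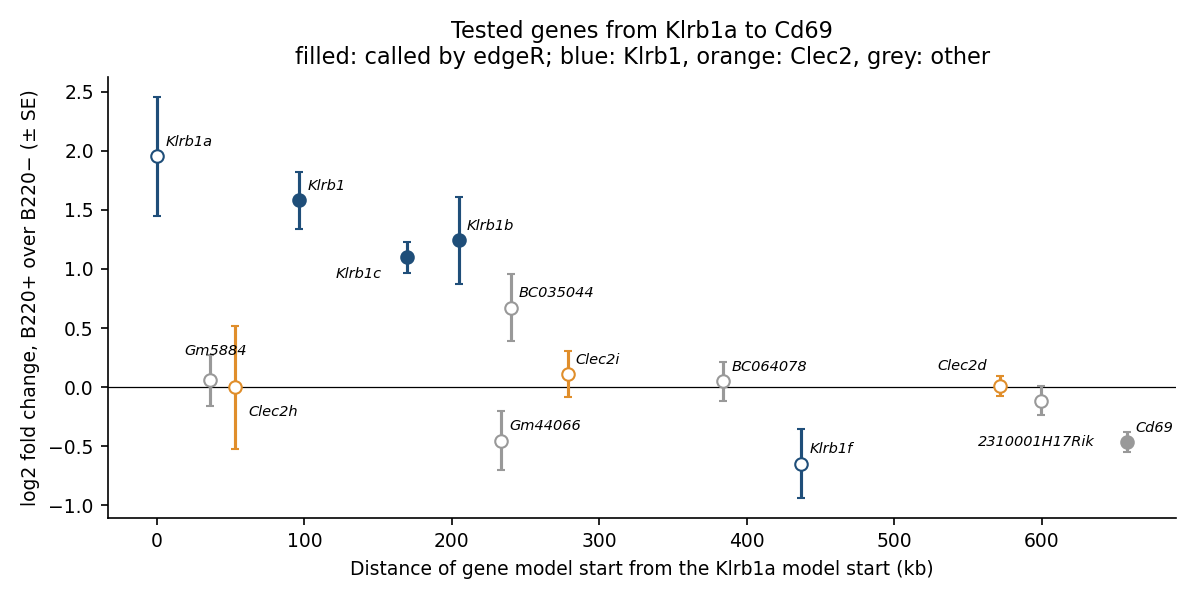
Log2 fold change (± SE) of each tested gene from Klrb1a to Cd69 against the distance of its model's start from that of Klrb1a. Filled points were called by edgeR: Klrb1, Klrb1c and Klrb1b at 1.58, 1.10 and 1.24, and Cd69 at −0.47.

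Of the other Klrb1 and Clec2 genes, 7 of 8 listed were in the table. Clec2h, the epithelial Clr-f gene, was at 0.970, 0.737 and 0.175 CPM in B220− and at 0.764, 0.806 and 0.354 CPM in B220+ replicates 1 to 3, which overlap. Clec2e, Clec2f and Clec2l had at most 5 counts in any library, and Clec2j, Clec2m and the pseudogene Klrb1-ps1 had 0 in all 6.

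Sequence shared between family members limits how exactly reads can be assigned. Of the 50-base stretches in annotated transcripts, 9.92% for Klrb1a, 16.98% for Klrb1c and 27.2% for Klrb1b also occur in another gene, and 0 for Klrb1 and Klrb1f. The largest overlap was with Gm44511, a model that spans Klrb1c and Klrb1b and shares 12.3% and 25.4% of their stretches. Gm44511 had 0 counts in every library. How the counting treated reads that overlap both models is not given, and its part in the levels of Klrb1b and Klrb1c was not tested. Klrb1a and Klrb1c share 6.35% of the stretches of Klrb1a.

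Stimulatory NKR-P1 receptors signal through the FcRγ adaptor (Fcer1g) and the kinase Lck, and inhibitory ones through the phosphatase SHP-1 (Ptpn6). Of 12 listed and tested genes, 2 were called higher and 1 lower, against 5.58% and 5.56% of all genes, and the median log2 fold change was 0.17. The counts were 3 and 2 with the replicate block (8.85% and 8.60% of all genes) and 5 and 1 by DESeq2 (6.12% and 5.84%). Ptpn11, the SHP-1 relative SHP-2, rose 1.52-fold from 168 ± 24.9 CPM (edgeR adjusted p = 0.00152), and Ptpn6 rose 1.39-fold from 410 ± 71.7 CPM (0.0301). Ptpn6 lost the call in 4 of the 6 fits without 1 library, up to 0.124 without B220− replicate 3. Cd247, the ζ chain of the T cell receptor, fell 1.43-fold from 236 ± 22.9 CPM (edgeR adjusted p = 0.00107). Lck (942 ± 30.4 and 892 ± 22.4 CPM) and Fyn (762 ± 49.1 and 724 ± 56.1 CPM), the most abundant of the list, were not called.

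The adaptor genes Fcer1g and Tyrobp were named after their values were seen. Fcer1g was at 83.3, 220 and 160 CPM in B220− and at 421, 420 and 440 CPM in B220+ replicates 1 to 3 (edgeR adjusted p = 0.108, DESeq2 0.00106). Tyrobp, the DAP12 adaptor of other stimulatory killer receptors, was at 37.0, 133 and 79.6 and at 279, 266 and 264 CPM (edgeR adjusted p = 0.147, DESeq2 0.00520). Both had the B220− order of Klrb1a, lowest in replicate 1 and highest in replicate 2, and in neither did the groups overlap. Fcer1g was called in 1 of the 6 fits without 1 library (without B220− replicate 1, edgeR adjusted p = 1.43e-04) and not in the other 5, up to 0.2585, nor with the replicate block (0.1805). Tyrobp was called in 0 of the 6, with a lowest adjusted p of 0.0612, and not with the replicate block (0.222). Without robust estimation, edgeR called both (adjusted p = 0.004985 for Fcer1g and 0.008735 for Tyrobp).

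Among 17 tested lectin-like genes of the natural killer gene complex outside this family, 8 were called higher and 2 lower, against 5.58% and 5.56% of all genes, and the median log2 fold change was 1.05. DESeq2 called 11 higher and 2 lower, against 6.12% and 5.84%. The largest changes among those called were in the Ly49 genes Klra6 (4.02-fold), Klra7 (3.02-fold) and Klra1 (2.70-fold), in Klri1 (3.50-fold), a partner of the Klre1 receptor, and in Klrk1 (3.12-fold), which encodes NKG2D. Klra6 and Klra7 can share reads with near-identical relatives. Klra6 was not called with the replicate block (edgeR adjusted p = 0.111). Leaving out B220− replicate 3 also ended its call (0.0525), and Klra7 was not called in 3 of the 6 fits without 1 library, up to 0.112 without B220− replicate 1. Klrd1, which encodes CD94, rose from 382 ± 60.6 to 659 ± 27.5 CPM (edgeR adjusted p = 4.32e-04). The genes called lower were Klrg1, which fell 2.58-fold, and Cd69.

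Transcription factors of lymphocytes with natural killer receptors were called in both directions, 2 higher and 5 lower of 15 tested, against 5.58% and 5.56% of all genes. The counts were 4 and 5 both with the replicate block (8.85% and 8.60%) and by DESeq2 (6.12% and 5.84%). Zfp683 (Hobit) fell 5.67-fold, Rora 3.43-fold and Eomes, a factor of natural killer and memory T cells, 2.43-fold (edgeR adjusted p = 6.81e-05, 4.18e-07 and 0.00362). Ikzf2, which encodes Helios, rose from 276 ± 32.7 to 550.4 ± 14.3 CPM (edgeR adjusted p = 1.27e-05). Ets1, the most abundant of the list at 1130 ± 43.0 and 1109 ± 69.5 CPM, was not called.

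**Figure D4:**
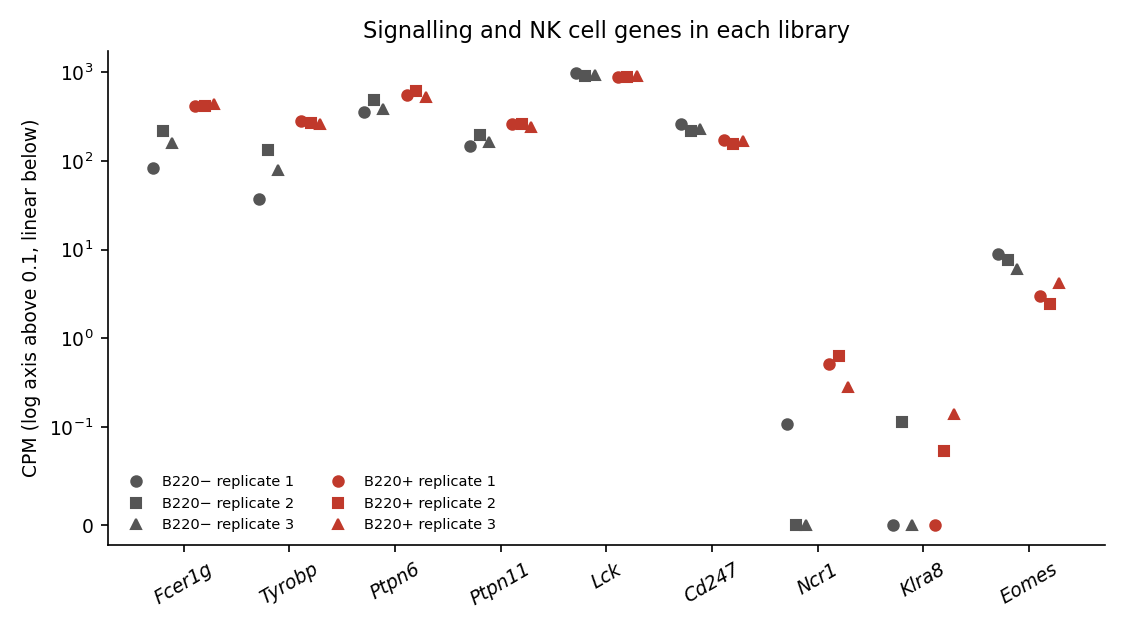
CPM in each library (log axis above 0.1, linear below) of signalling and natural killer cell genes, with grey for B220−, red for B220+ and the symbol shape for the replicate number. Fcer1g and Tyrobp lie apart between the groups, Ncr1 and Klra8 lie below 1 CPM in all 6 libraries, and Eomes is lower in B220+ libraries.

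The sort label was checked on T cell genes. All 8 listed were above 1 CPM in both groups, and they summed to 5218 to 5346 CPM in B220− and 5435 to 6052 CPM in B220+ libraries. The 12 natural killer cell markers summed to 338 to 600 CPM in B220− and 992 to 1042 CPM in B220+ libraries. The B220− sums had the order of Klrb1a, but a few genes led the sums. By group mean these were Fcer1g, Prf1 and Tyrobp in B220− and Fcer1g, Tyrobp and Irf8 in B220+ cells. Of the 8 markers tested, the main edgeR fit called 0 higher and 1, Eomes, lower, against 5.58% and 5.56% of all genes. Fcgr3 and Irf8, named after their values were seen, were higher in every B220+ library (9.02 and 27.7 CPM, and 51.7 and 133 CPM, group means), as were Fcer1g and Tyrobp. Their edgeR adjusted p was 0.0806 for Fcgr3 and 0.0628 for Irf8, and with the replicate block 0.194 and 0.121. DESeq2 called both higher (adjusted p = 0.00495 and 5.52e-04), as it did Fcer1g and Tyrobp, and so did edgeR without robust estimation. Neither of these 2 settings called Itga2, Prf1 or Klra9, and both called Eomes lower. Itga2 stood at 39.45 and 45.0 CPM with overlapping groups. Ncr1, which encodes NKp46, was at most 0.108 CPM in B220− (2 counts in all) and 0.283 to 0.630 CPM in B220+ libraries (35 counts), and Klra8 had 2 and 5 counts. Of 8 markers of innate-like T cells 7 were called lower and 0 higher, against 5.56% and 5.58% of all genes. Their sums were 107 to 154 CPM in B220− and 18.4 to 19.0 CPM in B220+ libraries. The remaining marker, Zbtb16, lay the other way, at 2.75, 7.54 and 3.76 CPM in B220− and 14.2, 12.2 and 9.55 CPM in B220+ replicates 1 to 3. Its edgeR adjusted p was 0.0597, but it was called higher by DESeq2 (7.65e-05), with the replicate block (0.0349) and without robust estimation (0.0219). Epithelial markers summed to 299 to 366 and 327 to 371 CPM, led by Cdh1 and Epcam, with 0 of 14 tested called by the main edgeR fit. Epcam was higher in every B220+ library (35.94 and 75.35 CPM, group means), with an edgeR adjusted p of 0.1697. DESeq2 (adjusted p = 0.0359) and edgeR without robust estimation (0.01762) called Epcam higher, but the replicate block did not (0.1502). The replicate block called Olfm4 (adjusted p = 0.008378) and Muc2 (0.01692) lower. B cell markers summed to 154 to 227 and 256 to 326 CPM, led by Ighm, while Ms4a1, which encodes CD20, was at most 0.108 CPM. Of 4 tested, the main edgeR fit called 0. Ighm (155.3 and 253.2 CPM, group means) and Ighd (4.075 and 12.03 CPM) were higher in every B220+ library. Their edgeR adjusted p was 0.09503 and 0.07753. DESeq2 called both higher (adjusted p = 0.01771 and 1.491e-05). So did the replicate block (8.414e-07 and 4.524e-04) and edgeR without robust estimation (0.01651 and 0.01777). Cd79b and Cd22, also tested, were not called under any of these settings. Myeloid markers summed to 258 to 330 and 392.2 to 541 CPM, led by Itgax. Of 6 tested, the main edgeR fit called 0 higher and 1, Lyz2, lower. Itgax was higher in every B220+ library (278 and 431 CPM, group means), with an edgeR adjusted p of 0.0554. DESeq2 called Itgax (adjusted p = 6.35e-06), as did the replicate block (1.99e-06) and edgeR without robust estimation (0.0151). The part of these cells in the receptor results was not tested.

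For the most abundant receptor and ligand genes, the genes most like them were sought over the 6 libraries by Pearson's r of log2 CPM, among 9379 genes with a mean of at least 10 CPM. For Klrb1a they were Sh2d1b1, a SLAM receptor adaptor of natural killer cells (r = 0.9996), the glycosyltransferase gene Gcnt1 (0.9995), the plakophilin gene Pkp2 (0.9992), the transporter gene Slc16a11 (0.9987) and the zinc finger gene Zfp52 (0.9986). Sh2d1b1, for one, stood at 10.7, 33.4 and 22.2 CPM in B220− and at 59.2, 72.65 and 67.0 CPM in B220+ replicates 1 to 3, and was not called (edgeR adjusted p = 0.118). Gcnt1 and Slc16a11 were not called either (0.0998 and 0.0653), but Pkp2 and Zfp52 were called higher (0.039 and 0.00788). With 6 points that share 2 groups, 363 genes reached r of 0.95 with Klrb1a, against 15 for Clec2d. The gene most like Clec2d was Mtm1 (r = 0.992), a phosphoinositide phosphatase gene, with 12.7 to 13.2 CPM in B220− and 11.1 to 14.8 CPM in B220+ libraries.

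**Figure D5:**
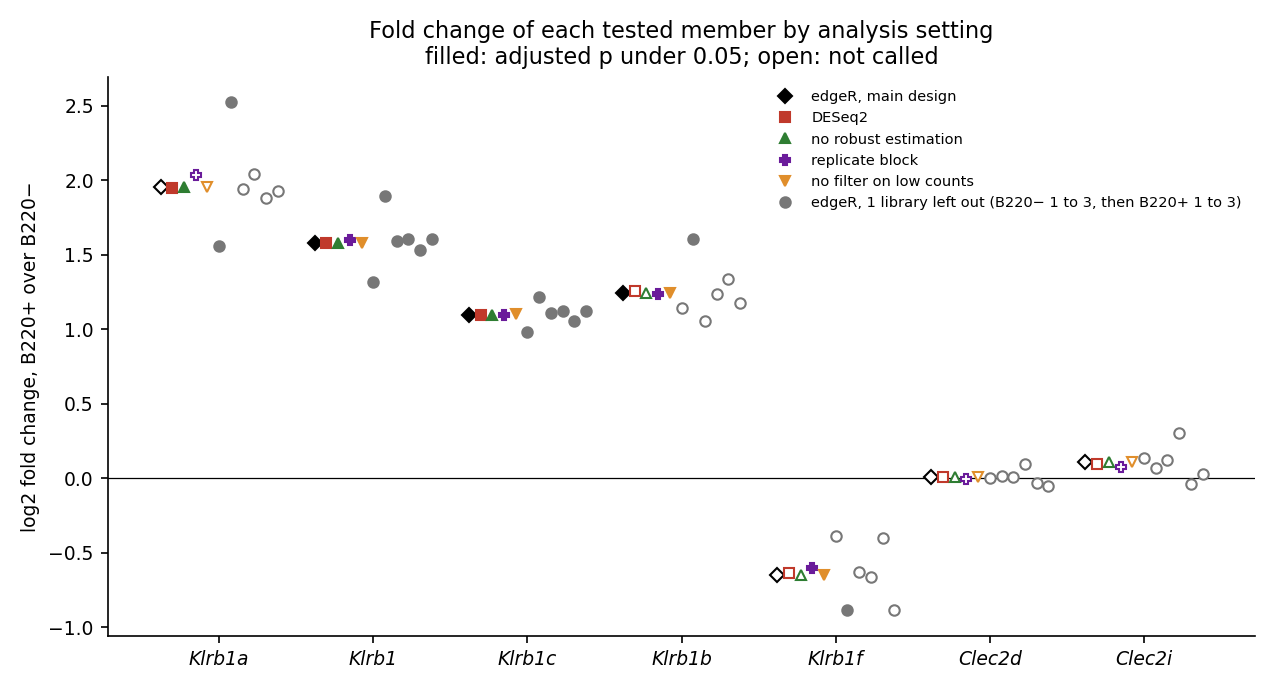
Log2 fold change of the 7 tested members under each analysis setting, with filled symbols where the adjusted p was under 0.05. Klrb1 and Klrb1c are filled under every setting shown, Klrb1a, Klrb1b and Klrb1f under some, and Clec2d and Clec2i under none.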

How the data were processed

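Per the labels' protocols, the RNA of 6 samples was sequenced from NEBNext Ultra II Directional libraries. The submitters' processing notes list featureCounts 1.6.3, HISAT2 2.1.0, Trimmomatic 0.38, FastQC 0.11.7 and SAMtools 1.9, with mm10. Their options, strand setting and annotation were not given in the sources used here. The deposited values are raw read counts per gene, with library totals of 11320363 to 39591312. Of the gene models, 98.73% had the coordinates of GENCODE M21, which gave exonic lengths, and those of all 8 members did.

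Counts were tested with edgeR 4.0.16 in R 4.3.3 (TMM scaling, filterByExpr with minimum count 10 and total 15, robust quasi-likelihood F test, group only), which was tested on simulated data. The SE is the absolute log2 fold change over the square root of F. Alternatives were DESeq2 1.42.0, median-ratio scaling, no filter, no robust estimation, a replicate block and leaving out each library. No library was a duplicate of another: within groups, chi-square over its degrees of freedom was 6.86 to 14.9. Same-numbered libraries of the titles correlated in their deviations from group means at 0.246 to 0.296 (others −0.203 to −0.0675). The labels do not state that these numbers mark pairs. The main test therefore left them out, so its adjusted p-values take no account of such pairing, and the replicate block was run as an alternative. The members and gene lists were chosen with earlier results of these data known. Named were all members, listed Klrb1 and Clec2 genes, and per list at most 5 called genes of largest change and 2 of highest level. A few genes that this rule would name are not reported here.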

Additional observations from a re-analysis of the deposited data

How the results depend on the processing

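The count of called genes was 1639, and 2569 with the replicate block. Leaving out 1 library gave 970 to 1789 genes, lowest without B220+ replicate 2 and 1029 without B220− replicate 3. It gave 2 to 5 called members against 3, and 5 without B220− replicate 2. DESeq2, median-ratio scaling and no robust estimation also called 3 members and no filter and the replicate block 4. The replicate block changed the call of 1 member, Klrb1f. Signs near 0 were not stable: Clec2d was −0.00099 with the replicate block and −0.050 to 0.098 on leaving out 1 library, and Clec2i −0.040 to 0.30. The cause was not tested. Median-ratio scaling changed no call of a member. Klrb1b, with 6 to 68 counts per library, and Clec2g, with at most 1, are limited by depth.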
